A study of Macaca mulatta with 6 samples.

Results

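Genes of glycolysis and of the response to low oxygen were examined in single blood colonies of rhesus macaques, with TET2 mutated (UA) or unmutated (WT). The list holds 35 genes, chosen by symbol, 23 of glycolysis and its end products and 12 of oxygen sensing and other hypoxia targets. A row of the count table was matched to 32 of them, of 32386 rows in all. PKM, ENO1 and ANKRD37 were matched to no row by symbol. UA colonies carried a TET2 mutation on a single allele, predicted to cause loss of function (labelled TET2+/-), and WT colonies were labelled wild type, with 3 libraries in each group. In both groups, mobilized CD34+ blood stem and progenitor cells had been treated with CRISPR/Cas9 and returned to the animal they came from, and the marrow was sampled 15 months later. CD34+ marrow cells were plated, and granulocyte-macrophage colonies (CFU-GM) were picked after 14 days, genotyped on DNA and sequenced on RNA. A colony grows from a single plated cell, so each library is a sample of 1 clone. How many animals gave the colonies and which alleles were edited is not in the labels, and the p-values take these libraries as samples whose spread may be technical.

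Glycolysis splits glucose into pyruvate and yields ATP without oxygen. Hexokinases trap glucose in the cell, phosphofructokinase commits it to the pathway, and lactate dehydrogenase turns pyruvate into lactate, which monocarboxylate transporters export. Under oxygen, EGLN prolyl hydroxylases mark the HIF alpha subunits for degradation. When oxygen is low the alpha subunits persist, pair with ARNT and raise the transcription of glucose transporters, most glycolytic enzymes, PDK1, SLC16A3, ADM, VEGFA, BNIP3 and EGLN3, the last of which is part of a feedback on HIF itself. Granulocytes and macrophages depend on glycolysis for much of their energy.

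Library totals ran from 6334264 to 17684447 counts in UA and from 10574104 to 25485143 in WT. Levels are given in CPM, counts scaled to a common library size with the trimmed mean of M-values (TMM), in the order of replicates 1 to 3. TET2 itself had 238, 225 and 229.5 CPM in UA and 79.3, 92.8 and 109 CPM in WT, so the mutated group held more of its transcript and the level does not check the labels. The UA libraries were far closer to each other than the WT libraries were, with a chi-square per degree of freedom of 4.21 to 5.21 between pairs in UA and 12.2 to 85.1 in WT, where 1 is sampling noise. From these data, 3 similar colonies and libraries that share an RNA source cannot be told apart. Several counts of called genes are therefore also given with the UA libraries added up as a single sample, where only WT libraries give the spread. WT replicate 1 stood apart from the other WT libraries, and the counts of members called were the same without it. Colony markers were present in both groups, with MPO, the peroxidase of neutrophil precursors, at 16603 to 16895 CPM in UA and 684 to 906 CPM in WT. Across all 13768 genes tested, 34.6% were higher in UA and 31.4% lower at an edgeR adjusted p under 0.05 (Benjamini-Hochberg over all genes; "called" below), and the median log2 fold change was 0.12. Scaling by library size alone raised fold changes by 0.16 on the log2 scale at the median.

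Most glycolysis genes were lower in UA, while the oxygen-sensing and other hypoxia genes went both ways. Of 20 glycolysis genes tested, 14 were called lower in UA, where the background was 31.4%, and 3 higher, where it was 34.6%. Their median log2 fold change was -0.91. TPI1, among the 14 lower, passed the filter on low counts through its level in WT. Of 11 hypoxia genes tested, 5 were called lower and 6 higher, with a median of 0.44. All 11 hypoxia genes tested were therefore called in some direction, against 66.0% of all genes, though EPAS1 passed the filter on low counts through UA alone. The 3 libraries of each group did not overlap for 14 glycolysis genes that were lower in UA and 3 that were higher, where 34.0% and 39.2% of all genes were separated in that way. They did not overlap for any of the 11 hypoxia genes, where 73.2% of all genes did not. With the UA libraries summed, 9 glycolysis genes were called lower and 2 higher, and 4 hypoxia genes lower and 3 higher, where the background was 17.5% lower and 21.4% higher. Together the 21 glycolysis genes with a row took 6812, 6635 and 6695 CPM in UA and 12898, 11449 and 11826 CPM in WT. The WT total was 1.80 times the UA total, and no UA library reached the lowest WT library. That ratio was 3.15 for the pyruvate and lactate genes, 1.51 for the enzymes, 1.03 for the glucose transporters and 0.346 for the regulators. In libraries of whole colonies, fewer cells of a type and less RNA per cell cannot be told apart.

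Markers of cell types also differed between the groups, where 34.6% of all genes tested were called higher in UA and 31.4% lower. Of neutrophil primary granule markers, 4 of 4 tested were higher and 0 lower, with a summed level of 24121 to 24967 CPM in UA and 1159 to 1277 CPM in WT. Monocyte and macrophage markers were higher in 3 of 6 and lower in 2, with 7844 to 8002 CPM in UA and 1659 to 2101 CPM in WT. LYZ (lysozyme) gave most of the UA sum, and the other 5 summed to 330.3 to 354 CPM in UA and 1205 to 1567 CPM in WT, lower in UA. CD14 gave most of that WT sum, at 18.4, 24.1 and 22.6 CPM in UA and 1410.1, 965 and 1066 CPM in WT. Beside it, FCGR1A was called lower (means of 24.6 CPM in UA and 37.7 CPM in WT) and CSF1R was not called. CD68 and CD163 were called higher, with means of 51.6 and 93.6 CPM in UA and 7.62 and 32.9 CPM in WT. Mast cell, basophil and eosinophil markers were higher in 4 of 5 tested, with 1427 to 1541 CPM in UA and 93.2 to 100 CPM in WT. EPX and PRG3, of eosinophils, gave most of the UA sum, with means of 877 and 499 CPM in UA and 2.90 and 11.0 CPM in WT. CPA3 and MS4A2 had means of 20.7 and 70.1 CPM in UA and 13.9 and 31.6 CPM in WT. HDC was not called, with means of 29.8 CPM in UA and 36.6 CPM in WT. Megakaryocyte markers were higher in 3 of 7 and lower in 1, with 728 to 749 CPM in UA and 423 to 470.5 CPM in WT. TUBB1 gave most of the WT sum, and the others summed to 528 to 540.3 CPM in UA and 12.3 to 14.3 CPM in WT. Lymphoid markers were higher in 3 of 5 and lower in 2, with 181 to 199 CPM in UA and 158 to 199.7 CPM in WT. GZMB gave much of the WT sum, and the others summed to 176 to 194 CPM in UA and 52.3 to 62.0 CPM in WT. CD3E, a T cell marker, had 1, 5 and 1 counts in UA and 0 in each WT library, and no other of these markers was at 0 in a whole group. The part of differing cell types in the glycolysis and hypoxia values was not tested.

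**Figure D1:**
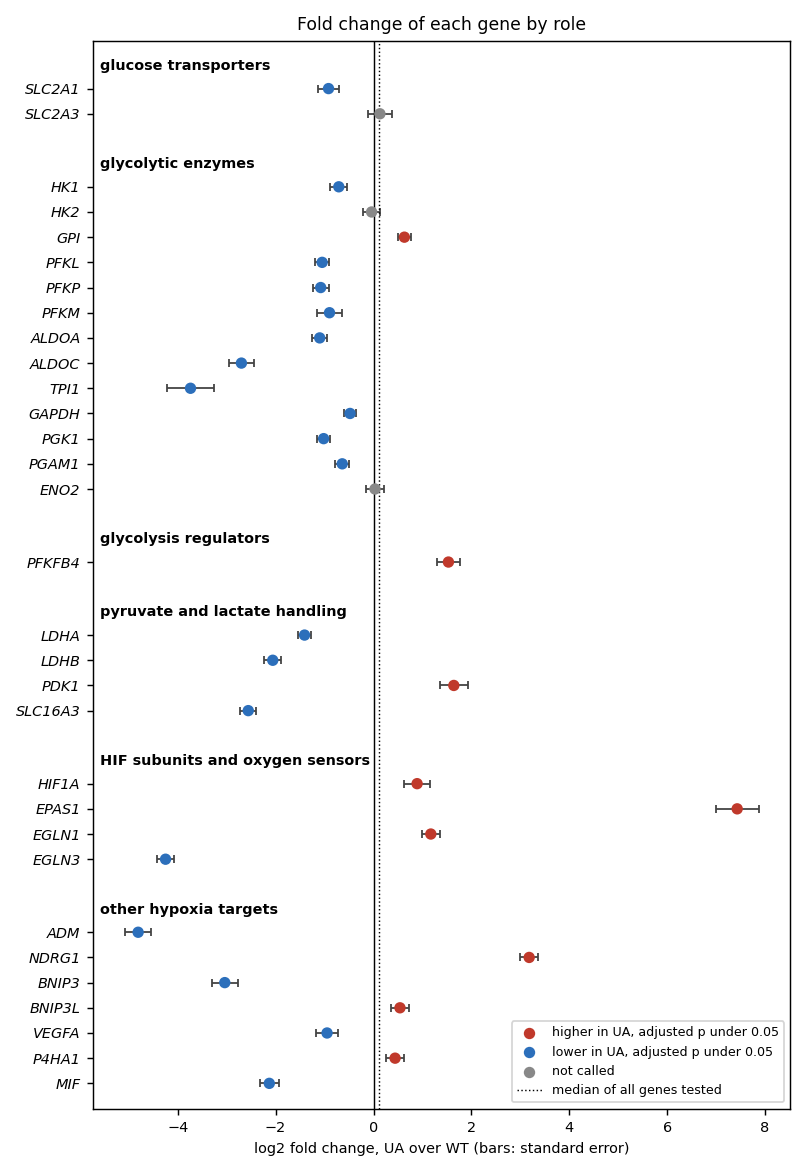
Log2 fold change of UA over WT for the 31 genes tested, grouped by role, with bars for the standard error. Blue points (lower in UA) fill most of the glycolytic enzymes, while EPAS1 at 7.43 and ADM at -4.81 mark the ends of the range.

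Glucose enters blood cells through SLC2A1 (GLUT1) and SLC2A3 (GLUT3), of which SLC2A1 was lower in UA and SLC2A3 was not called. SLC2A1 had 36.6, 41.9 and 31.8 CPM in UA and 53.9, 71.3 and 83.7 CPM in WT. All 3 UA libraries lay below all 3 WT libraries, with a log2 fold change of -0.92 (adjusted p = 0.00246, SE 0.21, edgeR). With the UA libraries summed that call was lost (edgeR adjusted p = 0.0917). SLC2A3 had 262, 275 and 269 CPM in UA and 144, 303 and 288 CPM in WT, where replicate 1 was far below the others. The groups overlapped, and the log2 fold change of 0.13 (adjusted p = 0.646, SE 0.24, edgeR) was not called. Without WT replicate 1 it was -0.16 (edgeR adjusted p = 0.063), and the sign turned there and with limma-voom. The number of SLC2A1 reads per SLC2A3 read, a ratio that needs no scaling between libraries, was 0.140, 0.153 and 0.118 in UA and 0.374, 0.235 and 0.290 in WT, and the groups did not overlap.

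Of 13 glycolytic enzyme genes tested, 10 were called lower in UA and 1 higher, where 31.4% and 34.6% of all genes were. Their median log2 fold change was -0.90. Of the 13, 6 were lower by more than 1 on the log2 scale, where 21.4% of all genes were. PGK1, PFKL, PFKP and ALDOA did not pass that cut with library size alone, at -0.86, -0.896, -0.919 and -0.923. TPI1, also among the 6, has a row in doubt, described below. With the UA libraries summed, 6 were called lower and 0 higher. At the entry step, HK1, the hexokinase of most tissues, had 193, 182 and 191 CPM in UA and 235, 349.6 and 344 CPM in WT, a log2 fold change of -0.71 (adjusted p = 0.00379, SE 0.17, edgeR) that was not called with the UA libraries summed (adjusted p = 0.151, edgeR). HK2, the inducible hexokinase and a HIF target, had 40.4, 40.8 and 37.8 CPM in UA and 42.4, 40.6 and 39.7 CPM in WT. The HK2 values overlapped within a narrow range. Their log2 fold change was -0.04 (adjusted p = 0.83, SE 0.17, edgeR), and its sign turned with library size alone and with a stricter filter. GPI, which converts glucose phosphate to fructose phosphate, was the only enzyme of the 13 called higher, at 661, 605 and 678 CPM in UA and 436, 398 and 423 CPM in WT. Its log2 fold change was 0.63 (adjusted p = 0.00152, SE 0.13, edgeR), and 0.65 with an edgeR adjusted p of 0.118 when the UA libraries were summed.

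All 3 phosphofructokinase genes, which encode the liver, platelet and muscle type subunits of the committing enzyme, fell in UA. PFKL had 291, 267 and 266 CPM in UA and 546, 546 and 619 CPM in WT, a log2 fold change of -1.05 (adjusted p = 5.38e-05, SE 0.14, edgeR). PFKP had 47.3, 48.3 and 55.5 CPM in UA and 106, 113 and 100.1 CPM in WT, a log2 fold change of -1.08 (SE 0.16). PFKM had 15.2, 15.9 and 11.1 CPM in UA and 19.9, 32.5 and 27.1 CPM in WT, a log2 fold change of -0.90 (SE 0.25), not called with the UA libraries summed (adjusted p = 0.161, edgeR). In each of the 3 the groups did not overlap. The balance between subunit genes did not separate the groups. PFKL reads per PFKP read were 6.14, 5.53 and 4.79 in UA and 5.14, 4.82 and 6.18 in WT, and PFKM per PFKP overlapped too. The log2 differences of these ratios, UA minus WT, were 0.03 (exact permutation p = 1.0) and 0.18 (exact permutation p = 0.5).

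Aldolase, which cleaves fructose bisphosphate, fell in both of its measured forms. ALDOA, the main form in blood cells, had 444, 414 and 439 CPM in UA and 1091, 806 and 879 CPM in WT, a log2 fold change of -1.10 (adjusted p = 8.88e-05, SE 0.15, edgeR). ALDOC, a form known from brain and as a HIF target, had 9.59, 7.40 and 13.7 CPM in UA and 74.6, 58.0 and 65.1 CPM in WT. The ALDOC fold change (log2) of -2.70 (adjusted p = 5.96e-06, SE 0.25, edgeR) was the lowest of the enzyme genes whose row is not in doubt. ALDOA reads per ALDOC read were 46.3, 56.0 and 32.0 in UA and 14.6, 13.9 and 13.5 in WT, so the ALDOC share was lower in each UA library.

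The genes of the next steps, from triose phosphate to phosphoglycerate, were lower in UA. GAPDH, which oxidizes glyceraldehyde phosphate and is often used as a reference gene, had 2469, 2382 and 2437 CPM in UA and 3723, 2972 and 3454 CPM in WT. Its log2 fold change of -0.48 (adjusted p = 0.00879, SE 0.13, edgeR) was the smallest of the called enzyme genes, and the call was lost with the UA libraries summed (adjusted p = 0.321, edgeR) and without UA replicate 2 (adjusted p = 0.0543, edgeR). It was -0.31 and still called with library size alone. PGK1, which makes ATP from bisphosphoglycerate, had 586, 569 and 598 CPM in UA and 1166, 1216 and 1173 CPM in WT. The UA libraries held close to the same level as each other and so did the WT libraries, with a log2 fold change of -1.02 (adjusted p = 4.21e-05, SE 0.13, edgeR). PGAM1, which moves the phosphate along, had 383, 383 and 324 CPM in UA and 539.5, 586 and 573 CPM in WT, a log2 fold change of -0.64 (adjusted p = 0.00174, SE 0.14, edgeR) that was not called with the UA libraries summed (adjusted p = 0.184, edgeR). ENO2, the neuronal enolase and a HIF target, had 32.0, 31.4 and 36.6 CPM in UA and 29.2, 33.8 and 35.1 CPM in WT. Its groups overlapped, and its log2 fold change of 0.03 (adjusted p = 0.901, SE 0.19, edgeR) changed sign in 3 of the 14 alternative fits.

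Several glycolytic genes have processed copies elsewhere in the genome, which can share their reads. The row named TPI1, triosephosphate isomerase, spans only 1692 bases on chromosome 14 from 70828909 to 70830600 in the deposited table of the authors, where no build is named. RefSeq (assembly T2T-MMU8v2.0) puts TPI1 on another chromosome, so the row may not be the gene itself. It had 18, 3 and 5 counts in UA and 172, 81 and 150 counts in WT, a log2 fold change of -3.74 (adjusted p = 6.05e-05, SE 0.49, edgeR), and counts as 1 of the 10 lower enzyme genes. It reached the filter on low counts in 1 UA and 3 WT libraries, so its place among the genes tested followed from its level in WT. A row without a symbol that the deposited table describes as enolase 1 (ENO1) spans 1970 bases on chromosome 3, again another chromosome than in RefSeq. It had 845, 807 and 818 CPM in UA and 2238, 1816 and 1862 CPM in WT, a log2 fold change of -1.26 (SE 0.14), and is in no count here. Another such row, described as phosphoglycerate kinase 1 and 1254 bases long on chromosome 7, had a log2 fold change of -1.01, beside -1.02 for the PGK1 row.

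**Figure D2:**
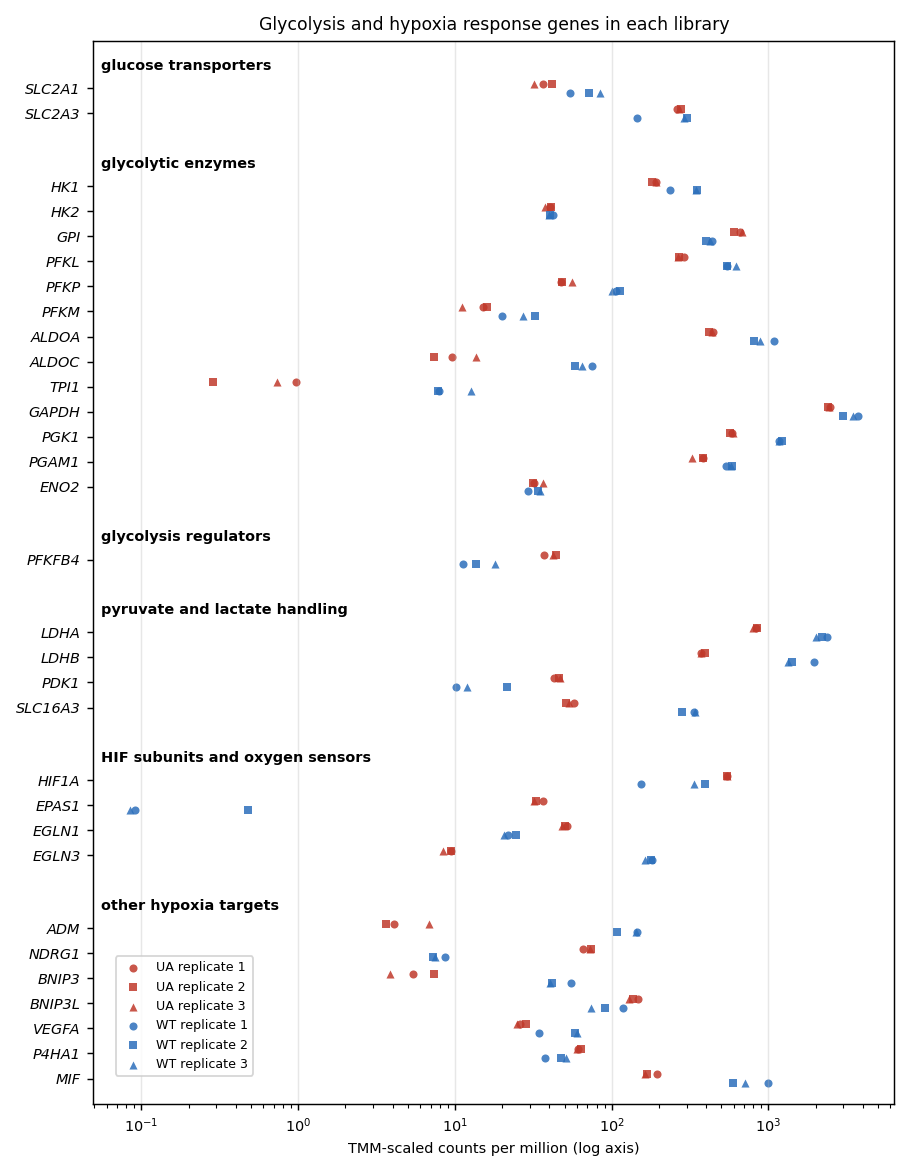
TMM-scaled CPM (log axis) of the 31 genes tested in each of the 6 libraries, with UA points (red) just above WT points (blue) and a marker shape per replicate. UA points cluster tightly, and for LDHA they sit at 793 to 839 CPM, all below the WT points at 2002 to 2379 CPM.

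PFKFB enzymes make and break down a fructose bisphosphate that activates phosphofructokinase, other than the one that aldolase cleaves. Of the pair listed, PFKFB4 was higher in UA. PFKFB4 had 37.2, 44.2 and 42.1 CPM in UA and 11.2, 13.7 and 18.1 CPM in WT. The groups did not overlap, and the log2 fold change was 1.53 (adjusted p = 0.000159, SE 0.23, edgeR). PFKFB3, its relative, had 6, 3 and 0 counts in UA and 0, 0 and 0 in WT and was too low to test. At these depths 0 counts allow up to 0.137 CPM in the deepest library (WT replicate 1) and 0.443 CPM in the shallowest (UA replicate 3), by counting error alone.

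Of 4 genes that decide between lactate and pyruvate oxidation, LDHA, LDHB and SLC16A3 fell in UA and PDK1 rose. LDHA, the subunit of lactate dehydrogenase that favours lactate formation, had 836, 839 and 793 CPM in UA and 2379, 2183 and 2002 CPM in WT. Its mean was 823 ± 26.1 CPM in UA and 2188 ± 188 CPM in WT (SD, n = 3 each), and the log2 fold change was -1.41 (adjusted p = 6.71e-06, SE 0.13, edgeR). LDHA lies on chromosome 14 from 47938475 to 47949642 in the deposited table. LDHB, the subunit that favours the reverse reaction, had 369, 391 and 371 CPM in UA and 1948, 1417 and 1339.9 CPM in WT. WT replicate 1 was the highest, and the log2 fold change was -2.06 (adjusted p = 2.88e-06, SE 0.17, edgeR), or -1.89 without that library. LDHA reads per LDHB read were 2.27, 2.15 and 2.14 in UA and 1.22, 1.54 and 1.49 in WT, higher in each UA library than in any WT library. A further row named LDHB, 1026 bases long on chromosome 3 against 22979 bases for the row used, had a log2 fold change of -2.03.

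SLC16A3 (MCT4), the lactate exporter of highly glycolytic cells and a HIF target, had 57.2, 51.4 and 53.2 CPM in UA and 335, 279 and 338 CPM in WT. The WT mean was 5.88 times the UA mean, with a log2 fold change of -2.56 (adjusted p = 4.23e-07, SE 0.16, edgeR). PDK1, the kinase that switches off pyruvate dehydrogenase and is itself a HIF target, was higher in UA. It had 42.7, 46.3 and 46.8 CPM in UA and 10.2, 21.6 and 12 CPM in WT, where replicate 2 was above the others. The groups did not overlap, and the log2 fold change was 1.64 (adjusted p = 0.000365, SE 0.28, edgeR).

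Of the 4 genes of the oxygen-sensing switch, 3 rose in UA and EGLN3 fell. HIF1A, the widely expressed HIF alpha subunit, had 542, 547 and 540.5 CPM in UA and 154, 393 and 333 CPM in WT. WT replicate 1 was far below the other WT libraries, and the log2 fold change was 0.89 (adjusted p = 0.0141, SE 0.27, edgeR). Without that library it was 0.56 (edgeR adjusted p = 4.08e-06), and with the UA libraries summed it was 0.91 and not called (edgeR adjusted p = 0.095). HIF1A lies on chromosome 7 from 123653473 to 123709880 in the deposited table. It is controlled mainly through the stability of its protein, which was not measured.

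EPAS1, the HIF alpha subunit known from endothelium and also made by some macrophages, had the largest difference of all 31 genes tested. It had 671, 342 and 215 counts in UA and 2, 5 and 1 counts in WT, or 36.4, 32.9 and 31.8 CPM in UA and 0.0914, 0.478 and 0.0842 CPM in WT. The log2 fold change was 7.43 (adjusted p = 4.1e-07, SE 0.44, edgeR). It rested on 8 counts over the 3 WT libraries, and it was 8.43 without WT replicate 2, in a range of 6.89 to 8.43 over the 14 alternative fits. EPAS1 passed the filter on low counts through the UA libraries alone, so its place among the genes tested followed from its high level there. HIF1A reads per EPAS1 read were 14.9, 16.6 and 17.0 in UA and 1690.5, 822 and 3956 in WT. Of 8 stromal and endothelial markers tested, 7 were higher in the same UA libraries and DCN (decorin) lower, where 34.6% and 31.4% of all genes were. Their summed level was 1265 to 1293 CPM in UA and 146 to 153 CPM in WT. None of the 8 was at 0 in a whole group. COL1A1, COL3A1 and KDR, among the 7, lay below the filter on low counts (0.886 CPM) in each WT library. CDH5, the cadherin of endothelium, had 46.3, 47.6 and 51.1 CPM in UA and 1.60, 0.765 and 1.35 CPM in WT, and the part of these cells in the EPAS1 difference was not tested.

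Of the prolyl hydroxylases that silence HIF, EGLN1 rose and EGLN3 fell. EGLN1, the main oxygen sensor, had 52.2, 50 and 48.0 CPM in UA and 21.7, 24.4 and 20.6 CPM in WT, a log2 fold change of 1.17 (adjusted p = 0.000178, SE 0.18, edgeR). EGLN3, a hydroxylase that is itself a strong HIF target, had 9.38, 9.42 and 8.42 CPM in UA and 180.5, 177 and 163 CPM in WT. The lowest WT library was many times the highest UA library, with a log2 fold change of -4.25 (adjusted p = 3.82e-08, SE 0.17, edgeR). EGLN1 reads per EGLN3 read were 5.57, 5.31 and 5.70 in UA and 0.121, 0.138 and 0.126 in WT. The ratio in UA was 43.1 times that in WT. EGLN3 lies on chromosome 7 from 95325345 to 95495464 in the deposited table.

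**Figure D3:**
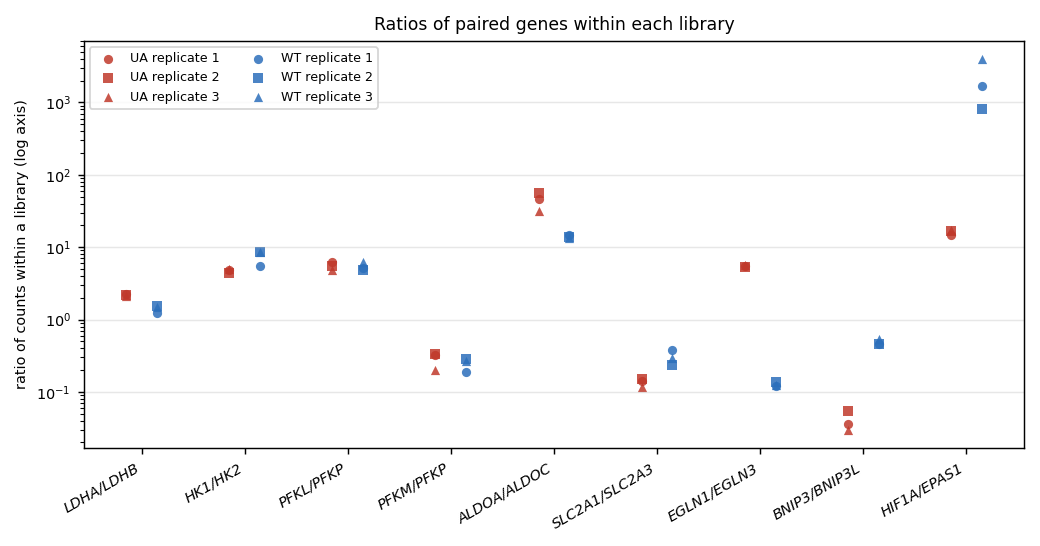
Ratio of the counts of paired genes within each library (log axis), with UA points (red) left of WT points (blue). EGLN1/EGLN3, BNIP3/BNIP3L and HIF1A/EPAS1 separate the groups most widely, while PFKL/PFKP and PFKM/PFKP overlap.

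Across the 9 ratios computed, 7 did not overlap between the groups, a share near the 73.2% of all genes that did not when taken singly. HIF1A/EPAS1, among the 7, rested on 2, 5 and 1 EPAS1 counts in WT. Each of these 7 had an exact two-sided permutation p of 0.1, the smallest that 3 against 3 libraries allow, and an adjusted p of 0.129 (Benjamini-Hochberg over the 9 ratios, permutation test). No ratio could therefore pass 0.05. Besides those given above, HK1 reads per HK2 read were 4.77, 4.46 and 5.05 in UA and 5.55, 8.60 and 8.66 in WT. Of these hexokinase genes, HK1 was called and HK2 was not.

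Other hypoxia targets were split, with 4 lower and 3 higher of 7 tested, where 31.4% and 34.6% of all genes were. Their median log2 fold change was -0.95, and -0.93 with the UA libraries summed. ADM (adrenomedullin), a secreted peptide that widens vessels and a much used marker of hypoxia, had 4.06, 3.65 and 6.79 CPM in UA and 144, 108 and 142 CPM in WT. Its mean was 4.84 ± 1.71 CPM in UA and 131 ± 20.3 CPM in WT (SD, n = 3 each). Its log2 fold change, -4.81 (adjusted p = 2.39e-07, SE 0.27, edgeR), was the lowest of the 31. ADM lies on chromosome 14 from 56177508 to 56179989 in the deposited table. NDRG1, a stress-response gene that hypoxia and iron depletion induce, was higher in UA. It had 66.0, 74.3 and 72.8 CPM in UA and 8.63, 7.27 and 7.49 CPM in WT, and the UA mean was 9.11 times the WT mean, with a log2 fold change of 3.18 (adjusted p = 4.22e-07, SE 0.19, edgeR). NDRG1 lies on chromosome 8 from 132539398 to 132601138 in the deposited table.

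BNIP3 and BNIP3L (NIX), related receptors that direct mitochondria to autophagy, moved apart. BNIP3 had 5.37, 7.31 and 3.84 CPM in UA and 55.0, 41.9 and 40.2 CPM in WT, a log2 fold change of -3.04 (adjusted p = 5.04e-06, SE 0.27, edgeR). BNIP3L, which also clears mitochondria from maturing red cells, had 147, 136 and 129 CPM in UA and 118, 90.5 and 74.2 CPM in WT. The groups lay close together without overlap, and the log2 fold change was 0.54 (adjusted p = 0.0248, SE 0.19, edgeR). That call was lost with UA replicate 1, 2 or 3 or WT replicate 2 or 3 left out, falling to 0.34 without WT replicate 3 (adjusted p = 0.164, edgeR), and also with the UA libraries summed. BNIP3 reads per BNIP3L read were 0.0364, 0.0538 and 0.0299 in UA and 0.464, 0.463 and 0.541 in WT. Erythroid markers also differed in these libraries, with 3 of 5 tested higher and 2 lower, where 34.6% and 31.4% of all genes were. Their summed level was 580.1 to 631 CPM in UA and 309 to 342 CPM in WT, and none was at 0 in a whole group. TFRC, the transferrin receptor that other dividing cells also carry, gave most of the UA sum. The other erythroid markers with a row summed to 30 to 41.2 CPM in UA and 209 to 258 CPM in WT, lower in UA, with RHAG, a red cell membrane protein, at 12.8, 10.6 and 15.2 CPM in UA and 236, 208 and 197 CPM in WT. Their part in the BNIP3L value was not tested.

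MIF, a cytokine of macrophages and a HIF target, had 194, 167 and 164 CPM in UA and 988, 592 and 711 CPM in WT, where replicate 1 was the highest. The log2 fold change was -2.13 (adjusted p = 6.28e-06, SE 0.20, edgeR). The deposited table names this row, which spans 38955 bases, SLC2A11, a neighbouring sugar transporter gene, whose reads it may hold in part. A row of 350 bases on chromosome 6 that the table names MIF had 43.6, 40.4 and 37.2 CPM in UA and 327, 204 and 229 CPM in WT, also lower in UA. RefSeq puts MIF on another chromosome, so that short row may not be the gene itself. VEGFA, the vascular growth factor, had 26, 28.2 and 25 CPM in UA and 34.4, 58.7 and 60.3 CPM in WT. Its log2 fold change of -0.95 (adjusted p = 0.00417, SE 0.23, edgeR) was -0.93 and not called with the UA libraries summed (edgeR adjusted p = 0.106). P4HA1, a subunit of the hydroxylase that matures collagen, had 60.6, 64.1 and 60.0 CPM in UA and 37.6, 47.6 and 51.0 CPM in WT. That difference was near the threshold, with a log2 fold change of 0.44 (adjusted p = 0.0464, SE 0.18, edgeR), and the call was lost in 7 of the 14 alternative fits. A row described as ANKRD37, a small ankyrin repeat gene that hypoxia induces, was at 2.11, 1.92 and 1.48 CPM in UA and 0.914, 0.861 and 0.926 CPM in WT and was not called (edgeR adjusted p = 0.127).

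**Figure D4:**
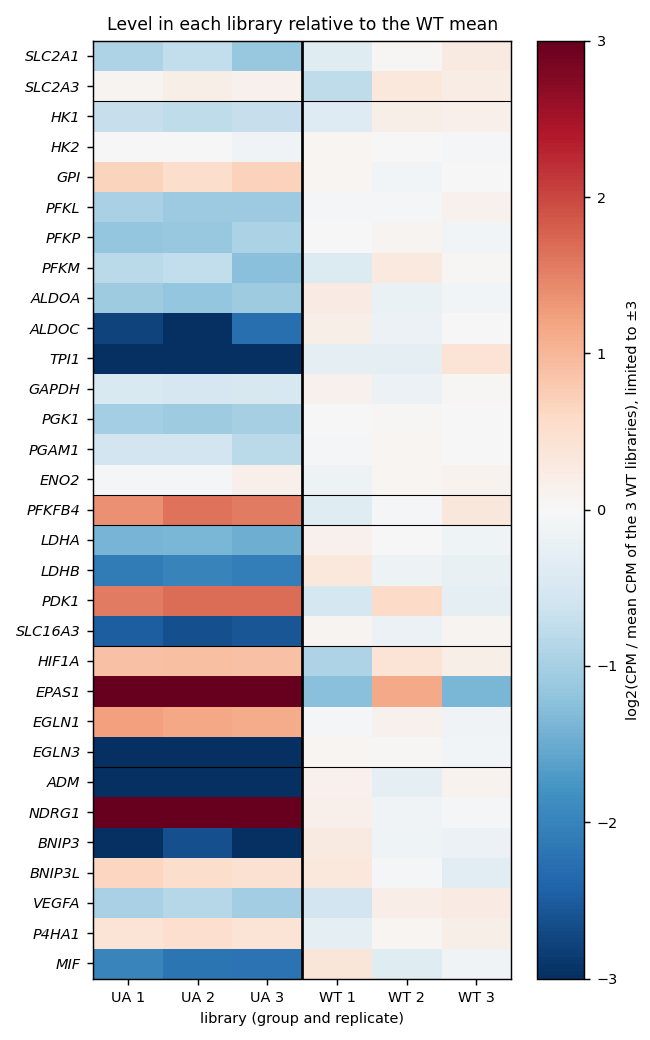
Level of each of the 31 genes tested in each library as log2 of its CPM over the mean of the 3 WT libraries, limited to ±3, with UA columns on the left. Within WT, replicate 1 lies below the others for HIF1A, SLC2A3 and VEGFA, and EPAS1 varies from 0.0842 to 0.478 CPM.

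The wider pathway was described with 3 further lists. Of 36 further genes of sugar uptake, glycolysis and pyruvate use tested, 14 were lower and 10 higher, shares of 38.9% and 27.8% that lay near the background, with a median log2 fold change of -0.42. With the UA libraries summed, 9 were lower and 5 higher. The lower ones included PDHA1, the catalytic alpha subunit of pyruvate dehydrogenase, at 101, 98.3 and 101 CPM in UA and 386, 287 and 259 CPM in WT. They also included MPC2, of the carrier that brings pyruvate into mitochondria, with a log2 fold change of -1.62 (adjusted p = 0.000127, SE 0.23, edgeR). SLC16A1 (MCT1), a lactate transporter, had -1.80 (SE 0.31) and the sugar transporter SLC2A6 -2.33 (SE 0.37). Of the higher ones with a mean of at least 5 CPM, the transporter SLC2A10 had a log2 fold change of 2.15 (SE 0.25). Below that level, PFKFB2 and LDHD had larger log2 fold changes of 3.22 (SE 0.75) and 2.79 (SE 0.47). PFKFB2 had 80, 43 and 10 counts in UA and 3, 7 and 4 in WT. It lay below the filter on low counts (0.886 CPM) in each WT library, so it was tested through its level in UA. LDHD had 99, 82 and 46 counts in UA and 29, 9 and 7 in WT, where replicate 1 alone reached the filter. SLC2A5, which carries fructose, had 255, 238 and 266 CPM in UA and 60.7, 68.7 and 69.2 CPM in WT, a log2 fold change of 1.93. PKLR, the pyruvate kinase of liver and red cells, rose by 1.71 and GPD2, of the glycerol phosphate shuttle, by 1.39 on the log2 scale.

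In the pentose phosphate pathway, which draws on glucose phosphate to make NADPH, 5 of 8 genes tested were lower and 1 higher, where 31.4% and 34.6% of all genes were. TALDO1 (transaldolase), which passes sugar carbons back towards glycolysis, had 356, 301 and 316 CPM in UA and 796, 621 and 566 CPM in WT, a log2 fold change of -1.03 (adjusted p = 0.000237, SE 0.16, edgeR). PGLS and RPE, enzymes of the same pathway, had log2 fold changes of -0.95 and -0.85. H6PD, which makes NADPH inside the endoplasmic reticulum, rose. It had 29.8, 23.9 and 21.1 CPM in UA and 0.503, 0.861 and 1.77 CPM in WT, with a log2 fold change of 4.65 (adjusted p = 4.9e-06, SE 0.41, edgeR). In WT, replicate 3 alone reached the filter on low counts for H6PD. With the UA libraries summed, 2 genes of this list were called lower and 1 higher, against 17.5% and 21.4% of all genes.

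Of 27 further hypoxia pathway genes tested, 13 were higher and 8 lower, with a median log2 fold change of 0.67. The shares were 48.1% higher and 29.6% lower, where 34.6% and 31.4% of all genes were, so the lower share lay near the background. With the UA libraries summed, 9 were higher and 5 lower. HMOX1, heme oxygenase, had 67.2, 63.8 and 58.9 CPM in UA and 1.64, 1.63 and 1.94 CPM in WT, a log2 fold change of 5.19 (adjusted p = 5.91e-08, SE 0.23, edgeR). CXCR4, a chemokine receptor, rose by 3.16 (SE 0.18) and KDM3A, a histone demethylase, by 2.32 (SE 0.16) on the log2 scale. HILPDA, which blocks lipid breakdown under hypoxia, went the other way with 3.69, 4.52 and 3.84 CPM in UA and 74.6, 50.6 and 45.4 CPM in WT. Its log2 fold change was -3.83 (adjusted p = 1.1e-06, SE 0.27, edgeR). TMEM45A, P4HA2, a collagen hydroxylase subunit, and FAM162A had log2 fold changes of -2.04, -1.99 and -1.58.

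**Figure D5:**
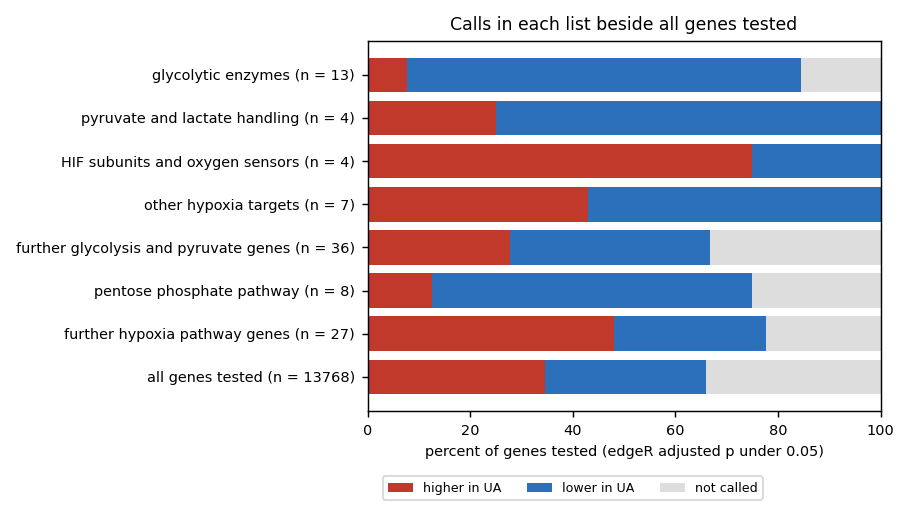
Percent of the genes tested in each list that were higher in UA, lower in UA or not called (edgeR adjusted p under 0.05), with all 13768 genes tested at the bottom. Of the glycolytic enzymes, TPI1 included, 76.9% were lower, where 31.4% of all genes were.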

How the data were processed

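RNA of single colonies was turned into cDNA with the SMART-Seq V4 kit and into Nextera XT libraries, per the labels' protocols. It keeps neither strand nor molecular identifiers, so reads of overlapping genes are not separable and PCR duplicates count. Build Mmul_8.0.1 and bcl2fastq are named in the submitters' processing notes, with aligner and counter not given in the sources used here. Raw counts were deposited by the authors per gene, as whole numbers without normalization. Their other deposited table gave symbols, descriptions and gene positions only, because which libraries it compares is not stated there or in the labels.

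Rows were named by row name, by the deposited table or by a table of gene names, and of several rows for a symbol the one with the highest total was used. All 6 libraries entered the test, edgeR 4.0.16 in R 4.3.3 (quasi-likelihood F-test, robust, TMM), with genotype the sole term. The filter (filterByExpr, minimum count 10, minimum total 15) left 13768 genes, over which the Benjamini-Hochberg adjustment ran. It kept 31 of the 32 members with a row, all but PFKFB3, and of these EPAS1 passed through UA alone. TPI1 reached the filter in 1 UA and 3 WT libraries, so it passed through its level in WT. The standard error is the log2 fold change over the square root of F. Floors (3 counts) cover counting error only. Transcript lengths were not used here, so levels are not compared between genes, and no sequences are shown. Alternatives were size factors and the test of DESeq2 1.42.0, scaling by library size only, either no filter or a stricter one (5 CPM in 3 libraries), limma-voom (limma 3.58.1), a replicate block, leaving out each library, and the UA libraries summed. The members, lists and tests were chosen with earlier results of these data known. All 35 members are accounted for, and from each wider list up to 4 called genes per direction with a mean of at least 5 CPM and the largest fold changes were chosen, of which some are not reported here.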

Additional observations from a re-analysis of the deposited data

How the results depend on the processing

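Of 31 members tested, 18 kept their direction and their side of the threshold in all 14 alternative fits. Summing the UA libraries changed the counts most, to 2950 genes higher and 2410 lower of all tested, 9 glycolysis members lower and 3 hypoxia members higher. The members whose call was lost there were SLC2A1, HK1, GPI, PFKM, GAPDH, PGAM1, HIF1A, BNIP3L, VEGFA and P4HA1, all of them in the same direction as before. All spread comes from the WT libraries in that fit. Among members that were not called, HK2 changed sign with library size alone (0.12) and with the stricter filter (0.000401), SLC2A3 with limma-voom (-0.0665), and ENO2 with limma-voom (-0.0509), and the cause was not tested. With 1 library left out, SLC2A3 ranged from -0.16 to 0.31 and ENO2 from -0.0706 to 0.0683 on the log2 scale. The log2 difference of PFKL/PFKP ranged from -0.06 to 0.13 and that of PFKM/PFKP from -0.01 to 0.41. Leaving out 1 library gave 13 to 14 glycolysis members lower and 4 to 6 hypoxia members higher. Replicate numbers did not pair the libraries, with correlations of deviations of 0.0129, 0.022 and 0.0132 for replicates 1 to 3. With a replicate block, 4765 genes were higher and 4174 lower, 14 glycolysis members were lower and 5 hypoxia members higher, and P4HA1 was the only member whose call was lost (log2 fold change 0.45, edgeR adjusted p = 0.064). Depth limits PFKFB3, which was too low to test, and EPAS1 in WT.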

Other observations

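The WT libraries differed among themselves in a part of the hypoxia genes. HIF1A in WT replicate 1 was 0.426 times the mean of WT replicates 2 and 3, and SLC2A3, VEGFA and PDK1 were 0.487, 0.578 and 0.610 times that mean. ARNT, the partner of the HIF alpha subunits, was 0.311 times that mean, at 58.6, 65.4 and 63.8 CPM in UA and 12.5, 41.7 and 38.6 CPM in WT. In the same WT library MIF, BNIP3L and LDHB were 1.52, 1.44 and 1.41 times that mean. EGLN1, EGLN3, PGK1 and PFKP lay within 10% of it. Over the 31 members tested, the highest library was 1.12 times the lowest at the median in UA and 1.35 times in WT, where all genes tested had 1.23 in UA and 1.60 in WT.

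Of 5 further genes that control pyruvate dehydrogenase, 2 were higher, 1 was lower and 2 were not called, where 66.0% of all genes were called. PDK3, a kinase that inhibits the complex, was lower in UA with a log2 fold change of -1.37 (adjusted p = 0.000563, SE 0.25, edgeR), while PDK2 was higher with 0.74 (SE 0.26). PDP1, the phosphatase that reactivates it, had a log2 fold change of 0.74 (adjusted p = 0.0163, SE 0.23, edgeR). PDK4 and PDP2 overlapped between the groups and were not called, with log2 fold changes of -0.62 (adjusted p = 0.0834, SE 0.29, edgeR) and -0.91 (adjusted p = 0.0976, SE 0.45, edgeR). TIGAR, which lowers the activator that PFKFB enzymes make, had 62.8, 59.4 and 54.3 CPM in UA and 181, 119 and 124 CPM in WT. FLT1, a VEGF receptor, had 36.3, 29.1 and 41.9 CPM in UA and 6.35, 12.9 and 9.18 CPM in WT. These genes were picked from the lists after their values were seen.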
